A study of Mus musculus with 42 samples.

Results

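The leptin receptor gene Lepr and 8 genes that act directly on or below the receptor were followed through 4 nuclei of the mouse hypothalamus: the kinase gene Jak2, the transcription factor genes Stat3 and Stat5b, the feedback inhibitor genes Socs3 and Socs2, the phosphatase genes Ptpn1 and Ptpn2, and the adaptor gene Sh2b1. These 9 genes were picked out by their symbols, and each matched 1 row among the 37907 genes of the deposited table. RNA-seq was performed on laser-captured arcuate nucleus (ARC), ventromedial hypothalamus (VMH), dorsomedial hypothalamus (DMH) and paraventricular nucleus (PVN) of wild-type adult male C57/BL6 mice, which either had food ad libitum (Fed) or were fasted for 24 hours (Fast). The 42 libraries form 8 groups: 5 ARC-Fed, 5 ARC-Fast, 6 VMH-Fed, 6 VMH-Fast, 5 DMH-Fed, 4 DMH-Fast, 6 PVN-Fed and 5 PVN-Fast. Values are RPKM, the reads per kilobase of transcript scaled to the mapped reads of the library, a unit on which levels of different genes can be compared. A captured nucleus is a mixture of cells, so fewer cells of a type and less RNA per cell cannot be told apart.

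Leptin is a hormone released by fat tissue, and its level in blood falls during fasting. The long form of the leptin receptor carries the kinase JAK2, which on leptin binding phosphorylates the receptor and, through it, STAT3 and STAT5 proteins that enter the nucleus and act on transcription. SOCS3, whose gene is a STAT3 target, binds the activated receptor and dampens it, the phosphatases PTP1B (Ptpn1) and TCPTP (Ptpn2) remove phosphate from JAK2 and STATs, and the adaptor SH2B1 enhances JAK2 signalling. In the ARC, leptin acts on neurons that make Agrp and Npy, which promote feeding, and on neurons that make Pomc, which restrains it.

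Depth was estimated from the RPKM values themselves, as the reads behind each library's scaling, which is not the number of reads sequenced. It ranged from 1.33 to 13.2 M reads with a mean of 4.57 M (M, mega), and the ranges of fed and fasted libraries overlapped in each nucleus. Marker genes of the 4 nuclei followed the labels, with all 12 of 12 markers highest in fed mice in their own nucleus. The labels number the replicates within a group but do not tie a library to a mouse, so p-values measure the spread between these libraries, and those between nuclei do not account for nuclei taken from the same brain. The study's methods state that nuclei were captured and libraries prepared in batches. No label assigns a library to one, so the 3 batches used here were inferred from the deposited numbers. Shifts between these batches had already been removed from the deposited values, and the tests between the 8 groups do not account for that step.

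Lepr lies on chromosome 4 from 101717404 to 101815352 on the plus strand of GRCm38 (ENSMUSG00000057722, protein-coding), and its transcripts encode receptor forms that differ in their intracellular part. The table gives 1 value for the gene, so the long, signalling form and the short forms could not be separated. In the GENCODE annotation the coding sequences of the long transcript Lepr-201 and of the shorter Lepr-202 and Lepr-203 are identical for 2667 bases and then part, and the long one runs to 3486 bases against 2676 and 2682. The sequences around that point are shown because they are what a gene-level value sums over. Lower case marks the last 30 shared bases and capitals mark what follows.
Lepr-201: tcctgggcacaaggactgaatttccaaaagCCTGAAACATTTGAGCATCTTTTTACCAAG
Lepr-202: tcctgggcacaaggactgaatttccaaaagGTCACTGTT
Lepr-203: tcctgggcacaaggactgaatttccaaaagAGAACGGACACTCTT

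Lepr rose in the fasted ARC, and it was the only one of the 9 genes to pass the test for fasting in any nucleus. In the 5 ARC-Fed libraries Lepr was at 2.74, 2.94, 3.32, 3.36 and 3.51 RPKM. In the 5 ARC-Fast libraries it was at 5.80, 7.25, 9.03, 9.34 and 14.0 RPKM. Every fasted library was above every fed library. The means were 3.18 ± 0.32 RPKM fed and 9.09 ± 3.10 RPKM fasted (SD, n = 5 each), a ratio of 2.86. On the log2(RPKM + 1) scale, on which all tests were run, the difference was 1.22 with a standard error of 0.17 and a 95% confidence interval of 0.87 to 1.58 (limma, Benjamini-Hochberg adjusted p = 0.000651 over 33579 genes). At the threshold of adjusted p under 0.1, 0.0566% of all genes tested were called in this comparison. The two-sided exact permutation test over the 10 libraries gave p = 0.00794, the smallest it can give for 5 against 5.

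**Figure D1:**
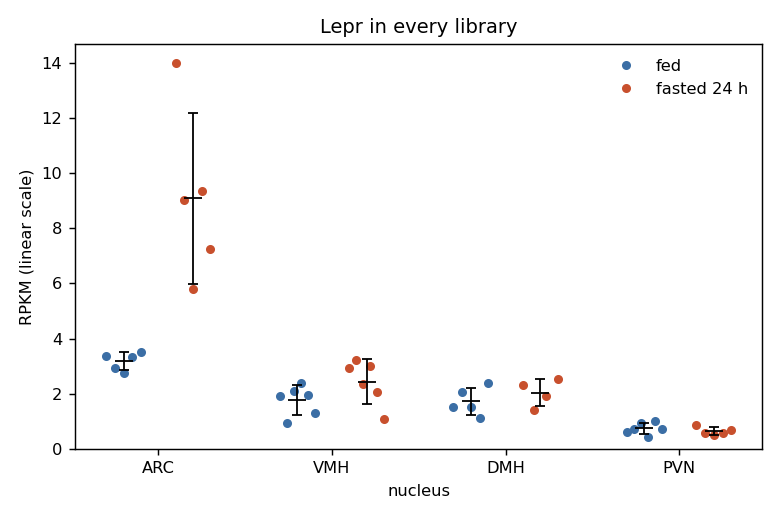
Lepr in RPKM (linear vertical axis) for each of the 42 libraries by nucleus, with fed libraries in blue and fasted libraries in orange. Horizontal bars are group means and error bars are SD. The 5 ARC-Fast libraries lie between 5.80 and 14.0 RPKM, above all other libraries, and the PVN libraries are the lowest group on average.

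The reads behind these values were few but separated the groups. The deposited values hold an added count, and shifts between batches had been taken out of them. Both steps were undone for these genes. For each batch, the value of a library with no reads was taken as the one that brought values closest to whole reads. ARC-Fed libraries held 77, 78, 91, 127 and 129 Lepr reads, and ARC-Fast libraries held 180, 237, 375, 378 and 519. Scaled to depth and length, without the added count and with batch differences restored, Lepr was at 3.16 RPKM fed and 9.10 RPKM fasted. The ratio was 2.88 (two-sided exact permutation p = 0.00794, n = 5 each). The difference was present in each inferred batch, at 1.78 in the one with 1 library a group and at 1.10 and 1.07 in those with 2 libraries a group. When the ARC libraries were fitted without the other nuclei the difference kept its size but not its call (adjusted p = 0.391).

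Marker levels in the ARC libraries were as follows, and their part in the Lepr result was not tested. The summed level of 8 neuron markers ranged from 725 to 808 RPKM in ARC-Fed and from 651 to 746 RPKM in ARC-Fast. The sum of 8 astrocyte markers ranged from 388 to 454 RPKM fed and from 386 to 459 RPKM fasted. The sum of 8 tanycyte and ependymal markers ranged from 27.8 to 37.5 RPKM fed and from 23.3 to 47.7 RPKM fasted. For 8 endothelial markers the sum ranged from 34.9 to 49.2 RPKM fed and from 32.8 to 55.5 RPKM fasted. For 6 choroid plexus markers it ranged from 13.4 to 28.5 RPKM fed and from 16.0 to 41.7 RPKM fasted. The sum of 4 ARC markers (Agrp, Npy, Pomc and Ghrh) ranged from 1012 to 1296 RPKM fed and from 1568 to 2553 RPKM fasted, with no overlap. That sum contains Agrp, the 1 of these 4 markers that passed the test for fasting in the ARC. The median of the sum was 1233 RPKM fed and 1847 RPKM fasted, beside Agrp means of 133 and 409 RPKM. The median difference over the 4 markers was 0.81 on the log2 scale. None of the 8 neuron, 8 astrocyte or 8 tanycyte and ependymal markers passed the test for fasting in the ARC.

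Outside the ARC no fasting difference in Lepr or in the other 8 genes passed the test, beside 0.131% of all genes called in VMH, 0.0238% in DMH and 0.0715% in PVN. In the VMH, Lepr ranged from 0.93 to 2.39 RPKM with a median of 1.93 in the 6 fed libraries and from 1.07 to 3.24 RPKM with a median of 2.63 in the 6 fasted ones, so the groups overlapped. Of the 6 VMH-Fast libraries, 5 were above the fed mean. The VMH difference was 0.30 (95% confidence interval -0.02 to 0.63, adjusted p = 0.617), and by batch it was 0.78, 0.18 and -0.05. In the DMH, fed libraries were at 1.13, 1.53, 1.53, 2.05 and 2.38 RPKM and fasted ones at 1.42, 1.92, 2.30 and 2.52 RPKM. The DMH difference was 0.16 (-0.21 to 0.54, adjusted p = 1). The PVN held the least Lepr, at 0.44 to 1.02 RPKM fed and 0.48 to 0.86 RPKM fasted, from 6 to 46 reads a library. The PVN difference was -0.08 (-0.42 to 0.26, adjusted p = 1).

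Whether the fasting difference in Lepr itself differed between nuclei was tested with an interaction term. It did not pass (F = 10.9, unadjusted p = 3.46e-05 from limma, adjusted p = 0.290). The term passed when libraries were weighted by quality (adjusted p = 0.0356), without ARC-Fast replicate 3 (adjusted p = 0.0446) and without VMH-Fast replicate 6 (adjusted p = 0.0746). Across all genes 0.00596% passed this test, and none of the other 8 genes did.

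Lepr differed between nuclei in both feeding states. From highest to lowest, the group means were 9.09 (ARC-Fast), 3.18 (ARC-Fed), 2.44 (VMH-Fast), 2.04 (DMH-Fast), 1.76 (VMH-Fed), 1.72 (DMH-Fed), 0.737 (PVN-Fed) and 0.635 RPKM (PVN-Fast). Neighbours in this order overlapped in their libraries, except ARC-Fast with ARC-Fed and DMH-Fed with PVN-Fed. The share of all genes without overlap was counted only for fed against fasted libraries of the same nucleus, not between nuclei. In fed mice ARC exceeded VMH by 0.62 (adjusted p = 0.0163), DMH by 0.63 (adjusted p = 0.0489) and PVN by 1.27 (adjusted p = 1.38e-06) on the log2 scale. VMH and DMH exceeded PVN by 0.65 (adjusted p = 0.00547) and 0.64 (adjusted p = 0.0260), and between VMH and DMH the difference was 0.01 (95% confidence interval -0.33 to 0.35). The ARC-DMH call was lost without any 1 of ARC-Fed replicates 1 and 5 or DMH-Fed replicates 1, 3 and 4, with adjusted p between 0.102 and 0.161. The DMH-PVN call was lost without DMH-Fed replicate 5 (adjusted p = 0.105) and with libraries of at least 3 M reads (adjusted p = 0.146).

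Among the 6 pairs of fed nuclei, the number of the 9 genes past the threshold was 6 for ARC against VMH (7.9% of all genes), 3 for ARC against DMH (2.79%), 2 for ARC against PVN (4.13%), 1 for VMH against DMH (5.24%), 2 for VMH against PVN (9.84%) and 1 for DMH against PVN (3.42%). In the test across all 4 nuclei, 5 genes passed in fed mice (Lepr, Stat3, Stat5b, Socs3 and Socs2) against 12.4% of all genes, and 5 in fasted mice (Lepr, Stat3, Stat5b, Socs2 and Ptpn1) against 11.9%. None of the 42 fits that leave out 1 library removed the Lepr call here. In the fasted state Lepr had F = 75.2 (adjusted p = 1.35e-12) and in the fed state F = 19.4 (adjusted p = 7.22e-06).

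The other 8 genes lie, on GRCm38, at chromosome 19 from 29251828 to 29313080 (Jak2), chromosome 11 from 100885098 to 100939540 (Stat3), 100780731 to 100850724 (Stat5b) and 117966079 to 117970047 (Socs3), chromosome 10 from 95385362 to 95417180 (Socs2), chromosome 2 from 167932057 to 167979385 (Ptpn1), chromosome 18 from 67665511 to 67724595 (Ptpn2) and chromosome 7 from 126466994 to 126475424 (Sh2b1). All are protein-coding, and the values sum over their exons.

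Jak2, the kinase bound to the receptor, showed no difference that passed a test. Group means ran from 9.17 RPKM in VMH-Fast to 12.2 RPKM in DMH-Fast, and the test across nuclei gave adjusted p = 1 in fed mice and 0.556 in fasted mice. The fasting differences were -0.14 in ARC, -0.28 in VMH, 0.08 in DMH and -0.04 in PVN, with confidence intervals that together ran from -0.63 to 0.49. Jak2 had 27 to 939 reads a library.

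Stat3, the main transducer of leptin in these neurons, was highest in the ARC. ARC-Fed libraries were at 11.1, 13.5, 16.9, 18.1 and 18.8 RPKM. In VMH-Fed the range was 3.59 to 13.1 RPKM with a median of 8.59, in DMH-Fed the 5 libraries were at 6.04 to 10.1 RPKM, and in PVN-Fed the range was 7.15 to 12.4 RPKM with a median of 9.43. The ARC exceeded VMH by 0.89 (adjusted p = 0.00191), DMH by 0.90 (adjusted p = 0.00792) and PVN by 0.63 (adjusted p = 0.0661). The last of these was lost without any 1 of ARC-Fed replicates 2, 3 and 4 or PVN-Fed replicates 1, 2 and 6 (adjusted p from 0.113 to 0.189), and with libraries of at least 3 M reads (adjusted p = 0.104). Fasting moved Stat3 by -0.15 in ARC (-0.56 to 0.26), -0.33 in VMH (-0.70 to 0.04), -0.03 in DMH and -0.04 in PVN, and none passed.

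Stat5b, which also transmits growth hormone and prolactin signals, had another order of nuclei, with the VMH lowest. Fed means were 10.3 ± 1.21 RPKM in PVN (SD, n = 6), 10.2 ± 1.42 in ARC (n = 5), 8.42 ± 1.76 in DMH (n = 5) and 5.18 ± 1.83 in VMH (n = 6). VMH was below ARC by 0.89 (adjusted p = 0.00157) and below PVN by 0.92 (adjusted p = 0.000538). Against DMH it was below by 0.64 (adjusted p = 0.0511), which was lost without DMH-Fed replicate 1, VMH-Fed replicate 3 or VMH-Fed replicate 5 (adjusted p from 0.114 to 0.196) and with libraries of at least 3 M reads (adjusted p = 0.123). Of the 50-base stretches in its exons 10.98% also occur in the neighbouring gene Stat5a, and how reads from them were assigned is not known. Stat5a had group means from 0.251 RPKM in DMH-Fast to 1.33 RPKM in PVN-Fed. The share of stretches found in other genes was 4.58% for Socs2 and 2.51% for Lepr.

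In the ARC, Stat5b and Socs3 had the largest fasting differences after Lepr, and neither passed the test. Stat5b was at 8.74, 9.25, 9.54, 11.4 and 11.97 RPKM in ARC-Fed and at 3.89, 5.18, 6.15, 6.86 and 9.41 RPKM in ARC-Fast. All 5 fasted libraries were below the fed mean, and 1 of them lay within the fed range. The difference was -0.65 (95% confidence interval -1.06 to -0.25, unadjusted p = 0.00250 by limma, adjusted p = 0.365), with a two-sided exact permutation p of 0.0238. By batch it was -0.99, -0.52 and -0.61. In VMH, DMH and PVN the Stat5b differences were 0.03, -0.12 and 0.01.

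**Figure D2:**
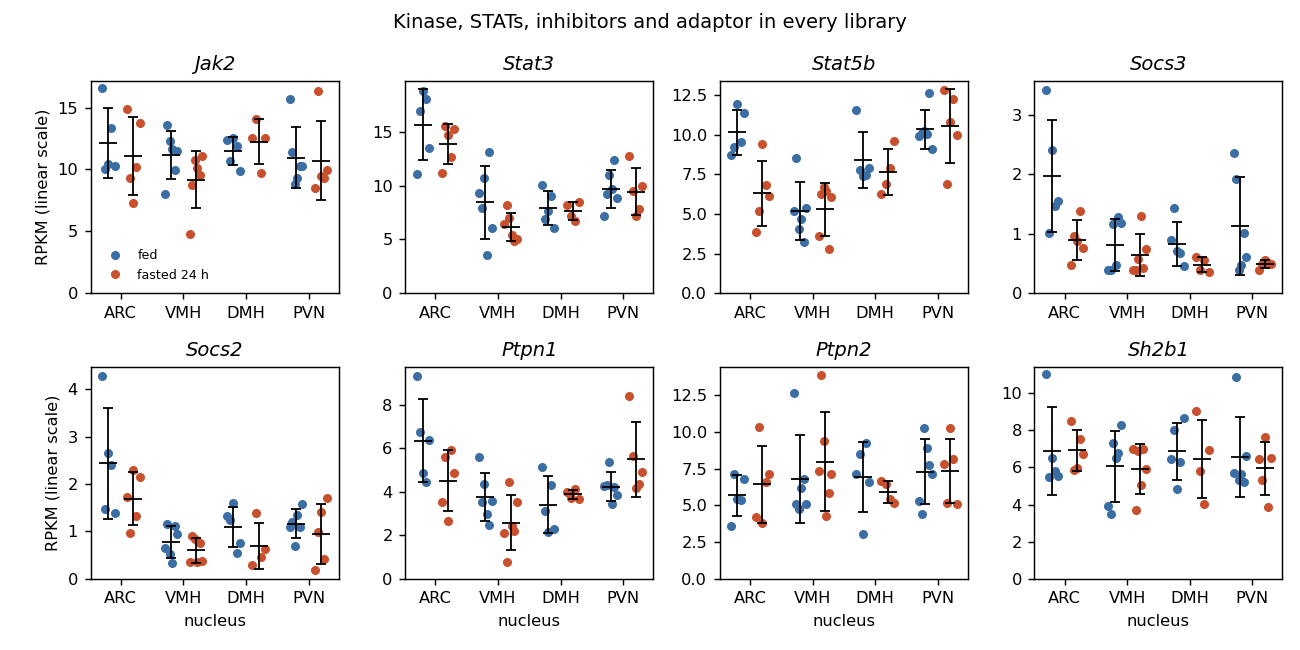
RPKM (linear vertical axes starting at 0) of the kinase, STAT, inhibitor, phosphatase and adaptor genes in each of the 42 libraries, with fed libraries in blue and fasted in orange. Horizontal bars are means and error bars SD. Stat3 and Socs2 are highest in the fed ARC and Stat5b is lowest in the VMH on average, while Jak2, Ptpn2 and Sh2b1 overlap across all 8 groups.

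Socs3, the inhibitor whose gene responds to STAT3, was near the limit of what these libraries can measure. It had 0 to 34 reads a library, with a median of 4, and no read in 8 of 42 libraries. A count of 0 allows up to 3 reads, which is 0.0783 to 0.781 RPKM in those 8 libraries, for counting error only. Because of the added count, a library with no Socs3 read is listed at 0.351 to 0.396 RPKM rather than at 0, so differences in the deposited values are compressed. ARC-Fed libraries held 34, 24, 17, 17 and 8 reads and ARC-Fast libraries held 16, 11, 6, 6 and 1.

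Deposited Socs3 values were 1.01, 1.47, 1.56, 2.41 and 3.41 RPKM in ARC-Fed and 0.471, 0.753, 0.871, 0.963 and 1.39 RPKM in ARC-Fast, with 1 fasted library inside the fed range. The difference was -0.62 (95% confidence interval -1.04 to -0.19, adjusted p = 0.514). From the reads themselves the level was 1.59 RPKM fed and 0.526 RPKM fasted, a ratio of 0.331 (two-sided exact permutation p = 0.0159, not adjusted for 36 such tests). By batch the deposited difference was -1.59, -0.45 and -0.30. In VMH, DMH and PVN the differences were -0.14, -0.29 and -0.43, with adjusted p of at least 0.869. In fed mice Socs3 in the ARC exceeded the VMH by 0.69 (adjusted p = 0.0293), which was lost without ARC-Fed replicate 1 (adjusted p = 0.158) and with array weights (adjusted p = 0.116). Its test across the 4 fed nuclei (adjusted p = 0.0640) was lost without ARC-Fed replicate 1 (adjusted p = 0.304) or replicate 3 (adjusted p = 0.198), with a pseudocount of 0.1 (0.104) or 0.01 (0.117), and with libraries of at least 3 M reads (0.1007).

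The RefSeq promoter window of Socs3 is shown because it alone, of the 10 windows searched, holds the STAT-type motif TTCNNNGAA. The 10 windows belong to 7 of the 9 genes. The motif reads the same on both strands, and 8.3% of all 32851 promoter windows of 300 bases hold it. The window is chr11:117969317-117969616 on the minus strand of GRCm38.p6, printed from 250 bases before to 50 bases after the RefSeq start with the motif in capitals. It lies inside the GENCODE locus of Socs3 (117966079 to 117970047), downstream of the start at 117970047. No window at that start was searched. A match in sequence is a description, and no binding was measured.
Socs3: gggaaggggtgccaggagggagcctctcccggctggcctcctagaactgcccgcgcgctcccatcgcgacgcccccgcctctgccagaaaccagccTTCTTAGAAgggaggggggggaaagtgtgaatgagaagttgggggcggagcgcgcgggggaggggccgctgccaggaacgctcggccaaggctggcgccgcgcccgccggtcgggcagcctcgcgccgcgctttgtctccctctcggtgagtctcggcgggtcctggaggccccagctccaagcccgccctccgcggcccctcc
For Lepr, the gene that rose, the window around its first annotated start is chr4:101717157-101717456 on the plus strand of GRCm38.p6, and it holds no match.
Lepr: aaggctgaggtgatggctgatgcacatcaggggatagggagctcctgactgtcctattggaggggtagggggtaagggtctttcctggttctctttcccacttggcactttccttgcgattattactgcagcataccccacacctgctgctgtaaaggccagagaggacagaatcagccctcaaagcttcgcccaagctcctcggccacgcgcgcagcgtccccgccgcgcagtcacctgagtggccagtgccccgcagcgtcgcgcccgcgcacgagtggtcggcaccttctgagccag

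**Figure D3:**
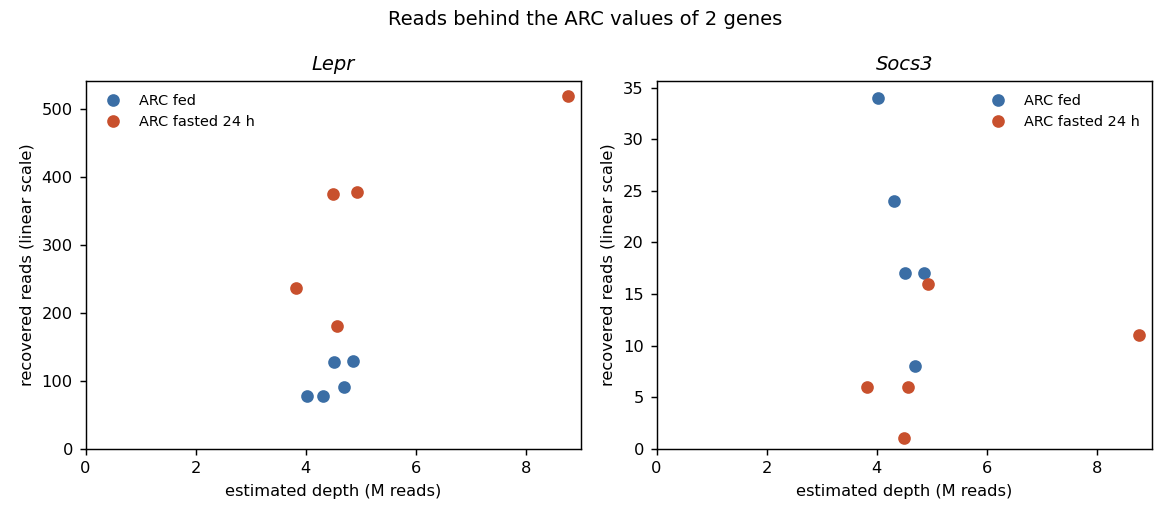
Reads recovered for Lepr (left) and Socs3 (right) in each ARC library (linear vertical axis) against its estimated depth in M reads (M, mega), fed in blue and fasted in orange. The fasted libraries hold 180 to 519 Lepr reads and the fed ones 77 to 129, while Socs3 has 1 to 16 reads fasted and 8 to 34 fed.

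Socs2, another SOCS inhibitor best known for limiting growth hormone signalling, was highest in the fed ARC. ARC-Fed libraries were at 1.38, 1.48, 2.40, 2.66 and 4.28 RPKM and VMH-Fed libraries ranged from 0.325 to 1.16 RPKM with a median of 0.793. The difference was 0.91 (adjusted p = 0.00288). Against DMH and PVN the fed ARC differed by 0.68 and 0.62 (adjusted p = 0.108 and 0.113), which did not pass. In fasted mice the test across nuclei passed for Socs2 (adjusted p = 0.0538) but not without ARC-Fast replicate 1, 3 or 5 (adjusted p from 0.121 to 0.186). The fasting difference was below 0 in all 4 nuclei, from -0.32 in ARC and DMH to -0.15 in VMH, with adjusted p of at least 0.886.

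Ptpn1, which encodes PTP1B, had its highest mean in the fed ARC at 6.36 ± 1.92 RPKM (SD, n = 5) and its lowest in VMH-Fast at 2.58 ± 1.27 RPKM (n = 6). The differences of the fed ARC from VMH (0.62, adjusted p = 0.0997) and DMH (0.76, adjusted p = 0.0917) lay just under the threshold. Leaving out a single library removed the first in 29 of 42 fits, with adjusted p up to 0.305, and the second in 19 of 42 fits, with adjusted p up to 0.295. Of 11 other settings, 7 removed the first (adjusted p up to 0.172) and 5 the second (up to 0.146). In fasted mice the test across nuclei passed (adjusted p = 0.0234), and narrowly failed without VMH-Fast replicate 2 (adjusted p = 0.1005). The Ptpn1 fasting differences were -0.42 in ARC and -0.46 in VMH against 0.20 in DMH and 0.28 in PVN, none past the threshold.

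Ptpn2, which encodes TCPTP, and Sh2b1, the adaptor, did not pass any test between nuclei or for fasting. Group means of Ptpn2 ran from 5.68 RPKM in ARC-Fed to 7.97 RPKM in VMH-Fast, and its fasting differences from -0.13 in DMH to 0.20 in VMH. Group means of Sh2b1 ran from 5.91 RPKM in VMH-Fast to 6.91 RPKM in ARC-Fast, and its fasting differences from -0.11 in PVN to 0.04 in ARC. The 95% confidence intervals for Sh2b1 ran from -0.56 to 0.47 over the 4 nuclei, so differences within that range could not be told from 0 with these libraries.

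Over the 4 nuclei, 1 of 36 fasting differences of the 9 genes passed the test by limma. At an unadjusted limma p under 0.05 the count over all genes was 2517 in ARC, 2455 in VMH, 2175 in DMH and 1857 in PVN. Of the 9 genes it was 3 in ARC (Lepr, Stat5b and Socs3), 1 in VMH (Ptpn1), 0 in DMH and 1 in PVN (Socs3). The median difference over the 9 genes was -0.15 in ARC, -0.14 in VMH, -0.10 in DMH and -0.04 in PVN, where the median of all genes was 0. In each nucleus 3 genes had a difference above 0 and 6 below. In the ARC, Lepr was the only gene of the 9 whose fed and fasted libraries did not overlap, and 0.742% of all genes tested had no overlap there.

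**Figure D4:**
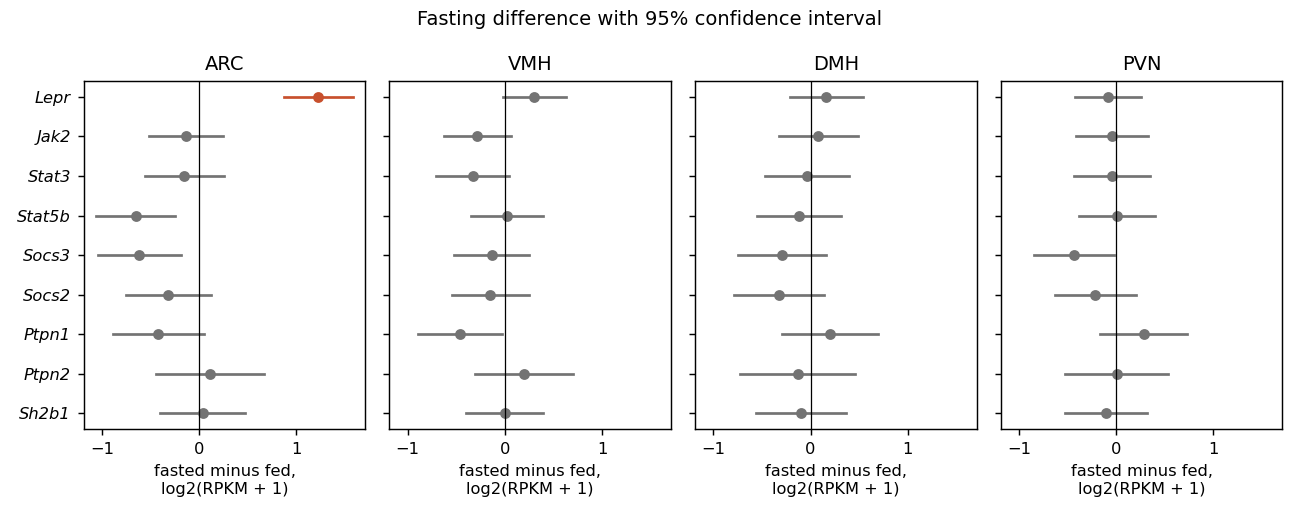
Fasting difference of each gene (fasted minus fed mean of log2(RPKM + 1), horizontal axis) in the 4 nuclei, with points for the estimates and lines for 95% confidence intervals. Orange marks adjusted p under 0.1, and only Lepr in the ARC, at 1.22, is so marked.

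Other genes of the pathway were taken from 9 lists, 72 genes in all, of which 70 passed the filter on low values. The lists were written with earlier results of these data known. Only 2 of the genes passed the test for fasting, both upwards and both in the ARC, where 0.0566% of all genes tested were called. None passed in VMH, DMH or PVN. Ghr, the growth hormone receptor, which like Lepr signals through JAK2, was the 1 of 12 other JAK-STAT receptors called. Ghr was at 8.69, 9.08, 9.50, 12.2 and 13.1 RPKM in ARC-Fed and at 16.7, 19.0, 19.9, 23.8 and 26.2 RPKM in ARC-Fast. The groups did not overlap, as for 0.742% of all genes tested in the ARC. The difference was 0.94 with a standard error of 0.15 (adjusted p = 0.00255). As for Lepr, the call was lost when the ARC libraries were fitted without the other nuclei (adjusted p = 0.391).

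Agrp, the orexigenic peptide made by leptin-inhibited ARC neurons, was the 1 of 10 genes of leptin output called. Its libraries were at 105, 110, 116, 157 and 179 RPKM fed and at 341, 351, 351, 403 and 597 RPKM fasted, a difference of 1.61 (standard error 0.33, adjusted p = 0.0613). The Agrp call was lost without any 1 of ARC-Fast replicates 1 and 4 or ARC-Fed replicates 2, 3, 4 and 5, with adjusted p from 0.106 to 0.150. It was also lost with a pseudocount of 0.1 (adjusted p = 0.218) or 0.01 (0.224), with each nucleus on its own libraries (0.280) and with libraries of at least 3 M reads (0.101). In the lists with no call, the smallest unadjusted p belonged to Bbs4 in VMH among the receptor neighbours and traffic genes (0.32, adjusted p = 0.475), Jak1 in PVN among the other JAK kinases (-0.23, adjusted p = 0.869) and Stat6 in VMH among the other STATs (0.43, adjusted p = 0.641). For the other SOCS genes it was Socs5 in ARC (-0.38, adjusted p = 0.647), for the other phosphatases and PIAS genes Pias1 in ARC (0.28, adjusted p = 0.647), and for the adaptor, PI3K and MAPK genes Sos1 in VMH (-0.25, adjusted p = 0.399). The ligand gene Lep did not pass the filter.

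The genes whose pattern was most like that of Lepr were sought by Pearson correlation of log2(RPKM + 1) among 23283 genes. Over the 42 libraries they were Acvr1c (r = 0.84), Gnai1 (0.84), Cited1 (0.82), Pcdh20 (0.81) and Arhgap36 (0.80). Over the 8 group means they included Gm13619 (r = 0.98), Pclo (0.97), Bud31 (0.97) and Thoc1 (0.96). These are descriptions, since the libraries share nuclei, batches and depth, and 8 points give a high correlation easily. In the ARC, Acvr1c was at 6.68 ± 0.77 RPKM fed and 9.98 ± 1.52 RPKM fasted (SD, n = 5 each), and Gnai1 at 170 ± 18.5 and 193 ± 28.1 RPKM.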

How the data were processed

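RNA from laser-captured nuclei was amplified and sequenced without strand information. Per the labels and the study's methods, reads were mapped to GRCm38 with TopHat2 2.0.11, and Cufflinks 2.2.1, edgeR and limma are named in the submitters' processing notes. The deposited values are RPKM made by the authors. The values show an added count of about 5 reads in an average library and 3 inferred batches of 10, 16 and 16 libraries whose shifts had been removed. Depth is an estimate from the step of 1 read. The step was checked on values of genes whose lowest value recurred between libraries. Of the values checked, 97.9% to 98.9% per library were whole reads within 0.05. Among the genes followed here only Socs3 had such a recurring lowest value, so this share does not cover the Lepr read counts.

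Genes with RPKM of at least 1 in at least 4 libraries were kept. Because of the added count, the filter also kept genes without a single read, 4746 of them. The shares of all genes tested and the adjustment include these genes. Because the files hold RPKM and not counts, limma 3.58.1 (R 4.3.3) was run on log2(RPKM + 1) with 8 group means, a trended prior and Benjamini-Hochberg adjustment over all 33579 genes, two-sided, at adjusted p under 0.1. Fold changes of low genes are understated on this scale. Exact permutation tests used scipy 1.17.1. The fit was tested on simulated data. The 9 genes, the pathway and marker lists and the alternatives were chosen with earlier results of these data known. Named were all 9 genes, each pathway gene past the threshold for fasting or else the one with the smallest unadjusted p in its list, and the 5 genes most like Lepr by each correlation, of which 1 is not reported here. The marker Kiss1 was not analysed here. Reads recovered from the values, within-batch differences, libraries of at least 3 M reads and the omission of genes with no reads were alternatives added after the data were seen. Promoter windows are from RefSeq (GRCm38.p6) and loci from GENCODE M21. Alternatives tried are given at the end.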

Additional observations from a re-analysis of the deposited data

Results flagged for a closer look

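In 7 of 72 sets of libraries (9 genes in 8 groups) 1 library stood apart from its group by Dixon's test, where chance gives about 1 in 20. The 7 belong to 7 different libraries. VMH-Fast 1, VMH-Fed 1, DMH-Fed 1, ARC-Fed 1 and PVN-Fed 2 lie in the inferred batch of 10 libraries. PVN-Fast 2 and PVN-Fed 5 lie in the batches of 16. ARC-Fed 1 and DMH-Fed 1 were the only libraries of that smaller batch in their groups. Jak2 was at 4.79 RPKM in VMH-Fast replicate 1, the shallowest library, against 8.71 to 11.05 RPKM in the other 5, and at 16.4 RPKM in PVN-Fast replicate 2 against 8.52 to 9.96 RPKM. Stat5b was at 11.6 RPKM in DMH-Fed replicate 1 against 7.41 to 7.89 RPKM, and at 12.7 RPKM in PVN-Fed replicate 5 against 9.09 to 10.2 RPKM. Ptpn2 was at 12.7 RPKM in VMH-Fed replicate 1, from 57 reads, against 4.75 to 6.77 RPKM. Sh2b1 was at 11.05 RPKM in ARC-Fed replicate 1 against 5.47 to 6.50 RPKM, and at 10.9 RPKM in PVN-Fed replicate 2 against 5.20 to 6.61 RPKM. Without these libraries no fasting difference of the same gene in the same nucleus passed the test, with adjusted p of at least 0.777. No library stood apart for Lepr, Stat3, Socs3, Socs2 or Ptpn1. No gene of the 9 passed the test that its fasting difference differs between nuclei.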

How the results depend on the processing

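The Lepr difference in the fasted ARC was 1.07 to 1.35 over the 42 fits that leave out 1 library each, and passed in all of them, with 1 gene of the 9 called each time (lowest 1, highest 1). Fitting each nucleus on its own libraries left it at 1.22 but uncalled, so that 0 of 9 genes were called, and within the inferred batch with 1 library a group it was 1.78. With a filter at a mean RPKM of 5, Lepr itself is not tested, so 0 genes were called for fasting in ARC, and 2 each between fed and between fasted nuclei. Between fasted nuclei, 3 genes were called with libraries of at least 3 M reads, with Stat5b (adjusted p = 0.113) and Ptpn1 (adjusted p = 0.468) lost. For the interaction 1 gene was called with array weights, and 0 to 1 when 1 library was left out. For fed nuclei the count was 4 to 6 and for fasted nuclei 4 to 5 when 1 library was left out. Between fed nuclei Ptpn1, not called as reported, was called with one-median scaling (adjusted p = 0.0938), array weights (0.0450), libraries of at least 3 M reads (0.0451) and genes with no reads left out (0.0828). Leaving those genes out also called Socs3 and Socs2 for fed ARC against DMH (adjusted p = 0.0913 and 0.0877) and Socs2 for ARC against PVN (0.0903), and array weights called Socs3 there (0.0699). In VMH, DMH and PVN no gene of the 9 was called for fasting in any fit. Same-numbered fed and fasted libraries did not deviate together in the deposited values (20 pairs, r from -0.112 to 0.0539). In ARC and VMH, however, same-numbered fed and fasted libraries fell in the same inferred batch. The shifts between batches had been removed from these values, so the check could not show a link by batch. With the replicate block the Lepr difference was 1.22 (adjusted p = 0.00119), and 4 genes were called between fed nuclei, where Socs3 was lost (adjusted p = 0.119). The block also removed the fed ARC-PVN difference in Stat3 (adjusted p = 0.145) and those of Ptpn1 in ARC from VMH and DMH (adjusted p = 0.109 and 0.112). Over all alternatives, 135 of 5430 differences changed sign, none of them called on either side, and no called difference reversed. Counts over all genes called for fasting moved by more than 1.5 times: 19 in ARC (0 to 40 over the other settings, 6 to 31 without 1 library), 44 in VMH (1 to 58 and 16 to 64), 8 in DMH (0 to 56 and 6 to 89) and 24 in PVN (3 to 141 and 11 to 48). At about 4.57 M reads a library, Socs3 differences are limited by counts of 34 reads or fewer.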
